A study of Mus musculus with 20 samples.

Results

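The glucocorticoid-responsive genes Fkbp5, Tsc22d3, Zbtb16, Sgk1, Per1, Nr3c1 and Pdk4 were followed in whole mouse lung. They were chosen by name, with earlier results of these data known, and all 7 were found among the 30691 named lines of the gene table. All 7 also passed the filter on low values, which kept 21658 genes with a signal of at least 10 in at least 4 libraries. The study crossed genotype with oxygen in 20 RNA sequencing libraries. Wild-type (WT) C57BL/6 mice and mice labelled VIPKO, in which the gene for vasoactive intestinal peptide (Vip) was targeted, were kept for 4 weeks at 21% oxygen (normoxia) or at 10% oxygen (hypoxia). WT mice gave 6 libraries in normoxia and 5 in hypoxia, and VIPKO mice gave 4 and 5. The titles call the VIPKO mice knockout, while their genotype entry says knockdown. Since the labels do not say that each library is a separate animal, the spread behind each p-value is that between libraries and may be partly technical.

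Glucocorticoids are adrenal steroids, mainly corticosterone in mice, that rise with a daily rhythm and with stress. They bind the glucocorticoid receptor, the product of Nr3c1, which waits in the cytoplasm on Hsp90 and its co-chaperones and, once bound, moves to the nucleus and binds response elements near its target genes. In lung this pathway matures the surfactant-making epithelium and restrains inflammation, and several of its targets feed back on the receptor or on the circadian clock.

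All 13 lung cell markers examined reached a signal of 10 in each library, among them the surfactant gene Sftpc (56999 to 251480). Vip did not separate the genotypes. Its signal was between 0 and 12.7 in 18 libraries, 93.0 in WT normoxia 5 and 106 in the library labelled VIPKO hypoxia 4. Each genotype direction therefore rests on the labels. Estimated depth ran from 4.96 M reads in WT hypoxia 4 to 56.7 M in 19 libraries, and that of VIPKO hypoxia 2 was uncertain. The mitochondrial ribosomal RNAs summed to 12034 to 27208 in VIPKO normoxia against 97.7 to 2075 in WT normoxia. In hypoxia they summed to 4506 to 9415 in VIPKO and 396.5 to 7058 in WT. This difference thus also lies along the comparison of hypoxia with normoxia in VIPKO, and its part in the comparisons was not tested. Skeletal muscle markers summed to 33918 in WT hypoxia 5, and thymus markers to 17126 in VIPKO hypoxia 3. In whole lung, fewer cells of a type and less RNA per cell cannot be told apart.

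RefSeq promoter windows (GRCm38.p6, the sequence of mm10) were available for 5 of the 7 genes, as 13 windows in all, each with 250 bases before and 50 after a start site. The upstream 250 bases of 4 windows are shown because they carry the motifs discussed here for the genes that passed a test or that varied together among libraries. Capitals mark the glucocorticoid response element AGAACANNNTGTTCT, its single arm TGTTCT, the E-box CACGTG bound by clock factors, and the cAMP response core TGACG, on either strand.
Sgk1, chr10:21993640-21993889, plus strand: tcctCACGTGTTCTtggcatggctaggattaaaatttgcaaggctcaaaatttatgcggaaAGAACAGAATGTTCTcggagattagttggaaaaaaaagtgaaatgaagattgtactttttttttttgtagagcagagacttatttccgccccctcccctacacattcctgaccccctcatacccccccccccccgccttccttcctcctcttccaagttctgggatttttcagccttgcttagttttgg
Per1, chr11:69098699-69098948, plus strand: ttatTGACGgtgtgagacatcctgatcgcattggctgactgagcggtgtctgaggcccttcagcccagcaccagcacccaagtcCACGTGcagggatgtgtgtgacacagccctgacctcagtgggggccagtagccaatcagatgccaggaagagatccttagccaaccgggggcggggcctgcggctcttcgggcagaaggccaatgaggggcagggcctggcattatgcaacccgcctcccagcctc
Fkbp5, chr17:28486150-28486399, minus strand: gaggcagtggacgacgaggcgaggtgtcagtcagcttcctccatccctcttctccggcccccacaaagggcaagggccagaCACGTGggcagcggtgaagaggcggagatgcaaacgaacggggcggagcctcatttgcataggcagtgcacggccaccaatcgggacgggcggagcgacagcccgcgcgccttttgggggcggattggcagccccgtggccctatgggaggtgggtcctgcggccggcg
Tsc22d3, chrX:140600523-140600772, minus strand: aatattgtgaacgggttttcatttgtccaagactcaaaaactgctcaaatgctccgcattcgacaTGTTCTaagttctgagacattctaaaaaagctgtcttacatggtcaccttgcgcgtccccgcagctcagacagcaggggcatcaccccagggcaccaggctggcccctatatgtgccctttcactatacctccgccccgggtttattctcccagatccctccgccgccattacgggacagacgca

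The Sgk1 window held an exact response element, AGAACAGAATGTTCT, beginning at base -189 from the start site (chromosome 10, 21993701 to 21993715). Its first capitals are an E-box at -246, whose end overlaps a single arm at -242. Another Sgk1 window, with its start site at 21986104, held a response element with 2 mismatches. With up to 2 mismatches such an element lay in 1.845% of all 32851 windows of this length, and in 2 of the 13 windows of these genes. Both belong to Sgk1, the gene with the most windows, so this share is no result about the 7 genes. The other matches were common in the background. The single arm, which is also part of the full element, was in 18.97% of windows, the cAMP response core in 20.81% and the E-box in 7.15%. Of the 13 windows of these genes, 4 held the single arm, 4 the cAMP response core and 3 the E-box. The Per1 window shown carried an E-box at -166 and a cAMP response core at -246, and another Per1 window only a cAMP response core, at -132. Fkbp5 had an E-box at -169, and the Tsc22d3 window shown a single arm at -185. The Sgk1 windows with start sites at 21882184 and 21992223 held only a single arm. For Sgk1, the window with its start site at 21978672 held only a cAMP response core, and that at 21994666 none of these letters. Of the Tsc22d3 windows not shown, that with its start site at 140548571 held only a cAMP response core. That with its start site at 140542668 and the Pdk4 window held none of these letters. A match describes the letters in a window and does not show binding, and enhancers outside it were not searched.

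Nr3c1, the receptor gene, kept nearly the same signal in every group. In WT normoxia its signal ran from 4514 to 5968 (median 4741). WT hypoxia gave, for libraries 1 to 5, 4556, 5296, 5700, 5337 and 5283. It was 5177, 4972, 4615 and 6059 in VIPKO normoxia, and 5232, 4914, 4784, 5688 and 6039 in VIPKO hypoxia. The groups overlapped throughout, and over all 20 libraries the highest was 1.34 times the lowest. Its log2 fold change was 0.070 ± 0.090 (SE; limma adjusted p = 0.617) with hypoxia in WT and 0.036 ± 0.099 in VIPKO (adjusted p = 0.909). VIPKO against WT gave 0.059 ± 0.096 in normoxia (adjusted p = 0.750) and 0.025 ± 0.094 in hypoxia (adjusted p = 0.913). The 95% interval for hypoxia in WT ran from -0.12 to 0.26.

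**Figure D1:**
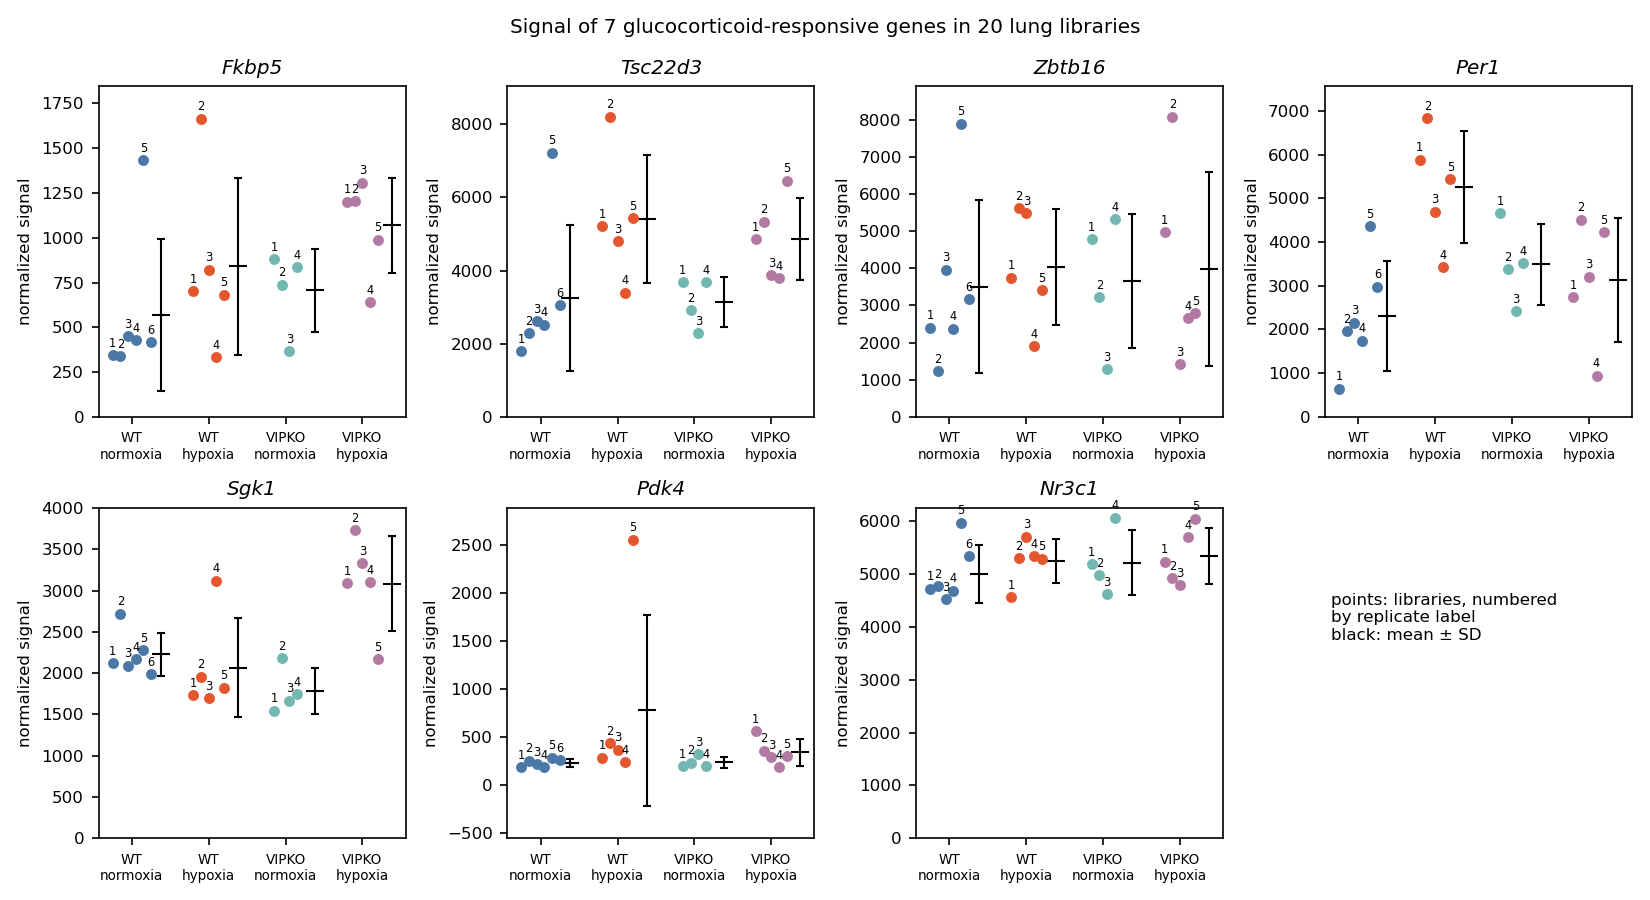
Normalized signal (vertical axis) of the 7 genes in the 4 groups; points are libraries, numbered by replicate, and black bars are mean ± SD. Nr3c1 stays between 4514 and 6059, Sgk1 is at 3087 or above in 4 of 5 VIPKO hypoxia libraries, and Pdk4 reaches 2559.7 in WT hypoxia 5; the Pdk4 axis starts below 0 to show the whole SD bar.

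Fkbp5 encodes the co-chaperone FKBP51, which lowers the affinity of the receptor for hormone and is itself induced by it. Its signal in WT normoxia ran from 339.7 to 1433 with a median of 422.7. In WT hypoxia it was 701, 1665, 822, 334 and 683. VIPKO normoxia libraries gave 881, 738, 368 and 837, and VIPKO hypoxia libraries 1201, 1206, 1308, 641 and 989. Without WT normoxia 5, the other 5 libraries of that group lay at 449.6 or below, while 4 of 5 WT hypoxia and 3 of 4 VIPKO normoxia libraries lay above that. The log2 fold changes did not pass the test, at 0.60 ± 0.37 for hypoxia in WT (limma adjusted p = 0.264) and 0.63 ± 0.41 in VIPKO (adjusted p = 0.526). Without WT normoxia 5 the first was 0.91 (adjusted p = 0.0539), and with library weights it was 0.88 and passed (adjusted p = 0.0364). Fkbp5 (chromosome 17, 28399094 to 28517527, mm10) overlaps 4 other annotated genes, 1 of them antisense, and the strand used in counting is not given in the sources used here.

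Tsc22d3 encodes GILZ, a leucine zipper protein that restrains NF-kappaB and AP-1. Its signal in WT normoxia ran from 1800 to 7223 with a median of 2568. It was 5216, 8211, 4808, 3397 and 5427 in WT hypoxia. In VIPKO normoxia it was 3680.0, 2910.2, 2283 and 3680.3, and in VIPKO hypoxia 4850.1, 5337, 3872, 3786 and 6460.4. The 5 WT normoxia libraries other than library 5 all lay below all WT hypoxia libraries, and in VIPKO mice the hypoxia and normoxia groups did not overlap. Tsc22d3 rose with hypoxia in WT by 0.84 ± 0.27 on the log2 scale, 1.79-fold (adjusted p = 0.0419). In VIPKO the value was 0.63 ± 0.30 (adjusted p = 0.381), and the difference between these changes was -0.21 ± 0.40 (adjusted p = 0.849). The WT call was narrow. It was lost when any 1 of 9 libraries was left out (WT normoxia 1, 2, 3, 4 or 6, or WT hypoxia 1, 2, 3 or 5; adjusted p 0.0626 to 0.0989). Without WT normoxia 5 the change was 1.10 (adjusted p = 0.00318).

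Zbtb16 encodes PLZF, a zinc finger transcription factor needed by innate-like lymphocytes and induced strongly by glucocorticoids in many tissues. Its signal ran from 1226 to 7899 in WT normoxia (median 2789). It was 3747, 5616, 5494, 1901 and 3413 in WT hypoxia, and 4794, 3229, 1286 and 5317 in VIPKO normoxia. VIPKO hypoxia libraries gave 4969.8, 8085, 1424, 2661 and 2791. Every group held both low and high libraries, and the groups overlapped almost entirely. The log2 fold change was 0.34 ± 0.46 with hypoxia in WT (adjusted p = 0.643) and 0.065 ± 0.51 in VIPKO (adjusted p = 0.974), with 95% intervals of -0.63 to 1.30 and -1.002 to 1.13. Markers of T cells and innate lymphoid cells, some of which express Zbtb16, summed to 9495.8 in VIPKO hypoxia 3, the library with thymus markers, where Zbtb16 was the lowest of its group.

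Sgk1 encodes a kinase that raises sodium channel activity in epithelia and is induced by glucocorticoids, aldosterone and cell stress. In WT normoxia its signal ran from 1989 to 2723 (median 2143). It was 1737, 1958, 1702, 3121 and 1825 in WT hypoxia, and 1545, 2179, 1667 and 1748 in VIPKO normoxia. In VIPKO hypoxia it was 3087, 3736, 3334, 3101 and 2167. Of these last 5, only library 5 fell within the VIPKO normoxia range, and of the WT hypoxia libraries only library 4 reached the VIPKO hypoxia level. Sgk1 rose with hypoxia in VIPKO by 0.78 ± 0.17 on the log2 scale, 1.72-fold (adjusted p = 0.0235). In WT the value was -0.14 ± 0.15 (adjusted p = 0.537).

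The test of the difference itself, the interaction of genotype and oxygen, gave 0.92 ± 0.22 for Sgk1 (95% interval 0.46 to 1.38) and missed the threshold over all genes (adjusted p = 0.0749). VIPKO against WT in hypoxia was 0.59 ± 0.16 (adjusted p = 0.0557). Both changed sides of the threshold with WT hypoxia 4. That library had the lowest estimated depth. It was also apart in the clock output gene Dbp (813, against 4539 to 5557 in the rest of its group). The part of either in its Sgk1 value was not tested. Without that library the interaction was 1.08 (adjusted p = 0.00798) and VIPKO against WT in hypoxia was 0.75 (adjusted p = 0.00611). The latter also passed without WT normoxia 2 (adjusted p = 0.0460) or VIPKO hypoxia 5 (0.72, adjusted p = 0.0351), and with the filter of 50 (adjusted p = 0.0471). With library weights the interaction was 0.84 (adjusted p = 0.0108) and VIPKO against WT in hypoxia 0.62 (adjusted p = 0.0140). Under all other alternative settings, and with any other library left out, neither passed. The Sgk1 call for hypoxia in VIPKO was lost without VIPKO normoxia 1, 3 or 4, or VIPKO hypoxia 1 or 4 (adjusted p 0.0570 to 0.102).

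Pdk4 encodes a kinase that switches off pyruvate dehydrogenase and so spares glucose in fasting, under glucocorticoid, FOXO and PPAR control. Its signal ran from 183 to 284 in WT normoxia (median 234). It was 283, 435, 368, 237 and 2559.7 in WT hypoxia, 194, 232, 319 and 194 in VIPKO normoxia, and 559, 357, 290.2, 188 and 302 in VIPKO hypoxia. The mean of 776 ± 1000 (SD, n = 5) in WT hypoxia rested on library 5. The log2 fold change in WT was 1.11 ± 0.42 (adjusted p = 0.0755), and it was 0.51 without that library (adjusted p = 0.166), and 1.36 (adjusted p = 0.0286) without WT hypoxia 4. With library weights it was 1.26 and passed (adjusted p = 0.0171). In VIPKO it was 0.47 ± 0.46 (adjusted p = 0.697).

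WT hypoxia 5 also held the skeletal muscle signal. Its 9 muscle markers summed to 33918, with none at 0, against 42.0 to 244.9 in the other libraries of its group. Adipocyte markers summed to 22665 there, against 1722 to 5274 in those 4 libraries. VIPKO hypoxia 1, second among all libraries in Pdk4, was also second in muscle markers (1037). The part of these cells in the Pdk4 value was not tested beyond the fit without that library. Among relatives of Pdk4, Pdk1 and Pdk2, which act on the same enzyme complex, rose in WT hypoxia by 0.66 ± 0.18 (adjusted p = 0.0221) and 0.56 ± 0.14 (adjusted p = 0.0171). The Pdk1 call was lost without WT hypoxia 1, 3 or 5 (adjusted p up to 0.0608).

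Per1 encodes a repressor of the circadian clock that glucocorticoids and cAMP induce directly. In WT normoxia its signal ran from 647 to 4367 (median 2061). It was 5886, 6829, 4698, 3425 and 5431 in WT hypoxia. VIPKO normoxia libraries gave 4656, 3374, 2411 and 3509, and VIPKO hypoxia libraries 2739.7, 4514, 3205, 941 and 4225. Only WT normoxia 5 reached into the WT hypoxia range. Per1 rose with hypoxia in WT by 1.36 ± 0.40 on the log2 scale, 2.57-fold (adjusted p = 0.0279). In VIPKO the value was -0.30 ± 0.44 (adjusted p = 0.804), or 0.083 without the library labelled VIPKO hypoxia 4 (adjusted p = 0.963).

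The difference between the Per1 changes was -1.67 ± 0.59 (95% interval -2.89 to -0.44, adjusted p = 0.205), and with library weights it was -1.93 and passed (adjusted p = 0.0479). VIPKO against WT was 0.77 ± 0.42 in normoxia (adjusted p = 0.261) and -0.90 ± 0.41 in hypoxia (adjusted p = 0.245). The WT call was lost without WT normoxia 1 or 4, or WT hypoxia 1, 2, 3 or 5 (adjusted p 0.0509 to 0.0608). Other clock genes were read beside it. Of 15 clock genes tested, Dbp (1.83 ± 0.59, adjusted p = 0.0410) and Hlf (1.19 ± 0.35, adjusted p = 0.0309), both clock output genes, rose in WT hypoxia. Arntl, whose protein drives Per1 and Dbp, fell by 1.64 ± 0.51 (adjusted p = 0.0362). These 3 of 15 stand beside 14.7% of all tested genes that passed in this comparison, a share close enough that the count itself says nothing particular about clock genes. At an unadjusted limma p under 0.05 there were 11 of 15, a cut at which the share of all tested genes was not computed. The median log2 fold change of the 15 was 0.72, beside -0.0059 over all tested genes. For the interaction limma called 0 of 15, while 9 had an unadjusted p under 0.05 and the median was -1.04 (0.0104 over all tested genes). The calls of Dbp, Hlf and Arntl were each lost without some single WT libraries, 8 for Dbp and 7 each for Hlf and Arntl. The time of day at collection is not given in the sources used here, and its part in these values was not tested.

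**Figure D2:**
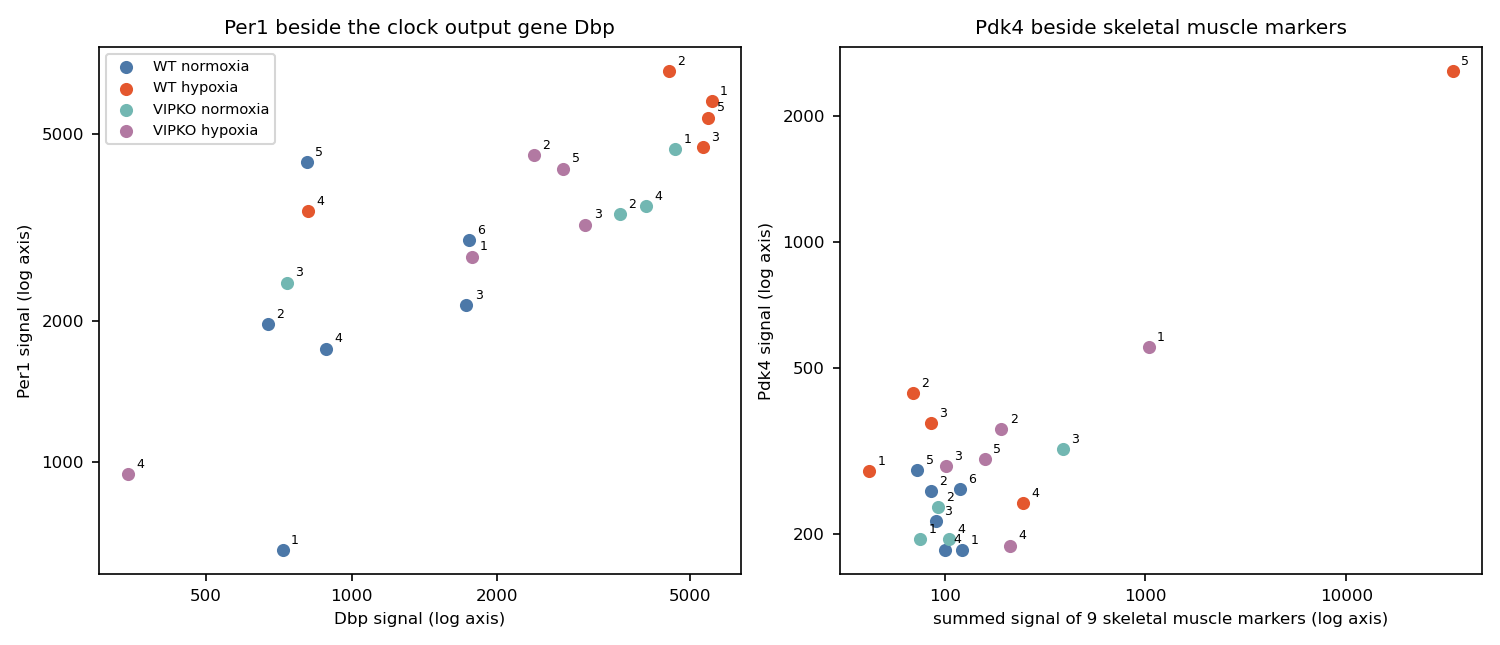
Left, Per1 signal against Dbp signal; right, Pdk4 signal against the summed signal of 9 skeletal muscle markers; points are libraries numbered by replicate, colored by group, and both axes are log scales. In 4 of 5 WT hypoxia libraries Dbp lies at 4539 or above, and WT hypoxia 4 lies at 813; WT hypoxia 5 stands alone in the right plot.

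WT hypoxia 4 was at 813 in Dbp, against 4539 to 5557 in the other 4 libraries of its group and 672 to 1747 in WT normoxia. It was the lowest of its group in Fkbp5, Tsc22d3, Zbtb16, Per1 and Pdk4 and the highest in Sgk1. WT normoxia 5, in contrast, had Per1 at 4367 with Dbp at only 808. There the clock repressor Per2 was 3944, against 601 to 1094 in the other WT normoxia libraries.

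Counted over the 7 genes, 2 rose with hypoxia in WT (Tsc22d3 and Per1), where 14.7% of all tested genes passed the test in either direction and 7.88% rose. With hypoxia in VIPKO, 1 rose (Sgk1), where 0.997% of all genes passed and 0.614% rose. In the limma test of VIPKO against WT in normoxia, 0 of 7 passed (0 also had an unadjusted p under 0.05; 8.65% of all genes passed). In hypoxia 0 of 7 passed (2 at an unadjusted p under 0.05; 1.62% of all genes passed), and for the interaction 0 of 7 (2 at an unadjusted p under 0.05; 0.282% of all genes passed). The median log2 fold change of the 7 was 0.60 with hypoxia in WT and 0.47 in VIPKO, beside -0.0059 and -0.011 over all tested genes. The hypoxia and normoxia groups were free of overlap for 1 of 7 in VIPKO (Tsc22d3; 5.13% of all genes) and 0 of 7 in WT (7.94% of all genes). Both genotype comparisons had 0 of 7 free of overlap, beside 9.87% of all genes in normoxia and 3.76% in hypoxia. The comparisons share groups and are not independent of each other.

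**Figure D3:**
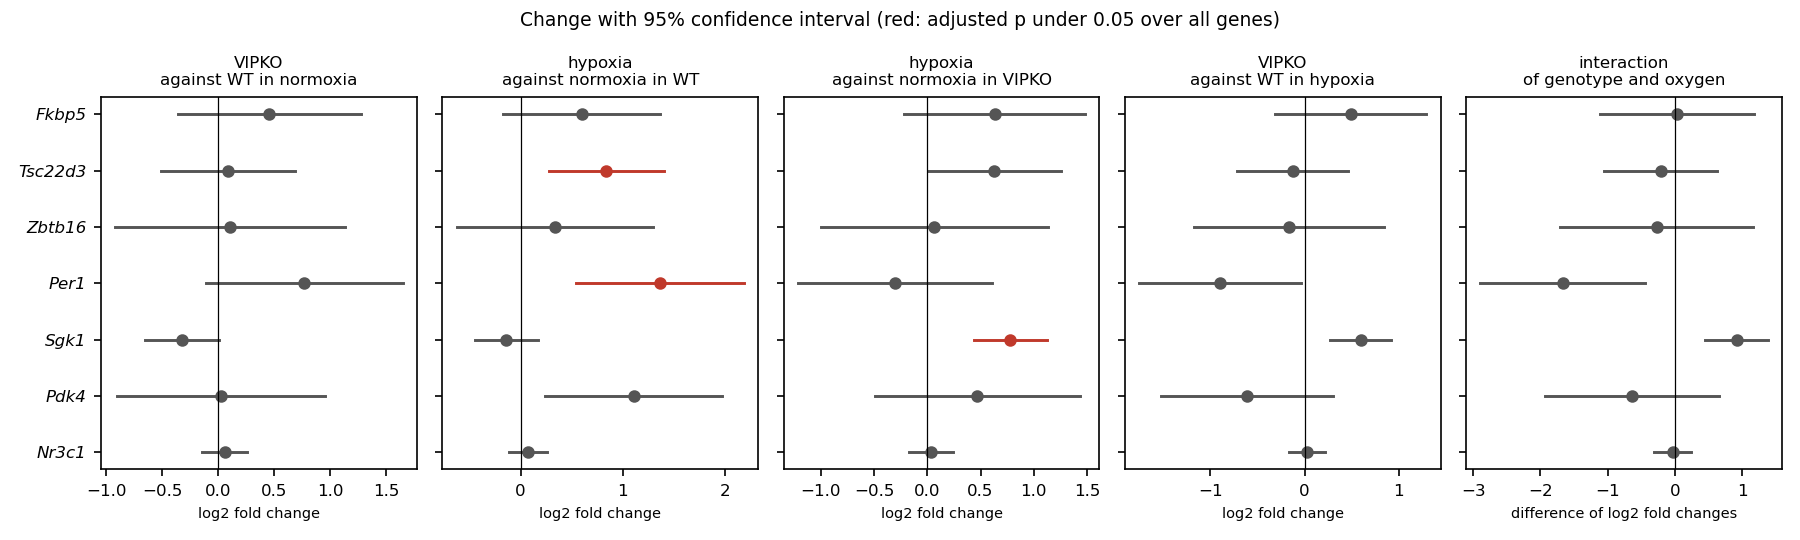
Log2 fold change (points) with 95% confidence interval (lines) of the 7 genes in the 5 comparisons, each panel with its own horizontal scale; red marks an adjusted p under 0.05. Tsc22d3 (0.84) and Per1 (1.36) are red for hypoxia in WT and Sgk1 (0.78) for hypoxia in VIPKO.

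Within groups, most of these genes varied more between libraries than genes of like signal. The SD of the log2 signal within groups was 0.68 for Fkbp5, 0.50 for Tsc22d3, 0.86 for Zbtb16, 0.74 for Per1 and 0.77 for Pdk4. Among the 1000 tested genes nearest in mean signal, where the median SD was 0.16 to 0.23, these stood at the 98.1st to 99.4th percentile. Sgk1 had an SD of 0.27 (86.7th percentile) and Nr3c1 0.14 (35.2nd percentile). The value of Pdk4 rested on WT hypoxia 5, and without that library it was 0.40 (85.5th percentile). For Fkbp5, Tsc22d3, Zbtb16 and Per1, the percentile stayed at 94.7 or above whichever single library was left out.

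Fkbp5, Tsc22d3, Zbtb16 and Per1 varied together among libraries of the same group. Deviations of each library from its group mean were compared for all 21 pairs over 20 libraries, with 2-sided permutation within groups (100000 resamples) and Benjamini-Hochberg adjustment over the 21. By Pearson's r, 5 pairs passed, all positive, and 6 passed by Spearman's rho. Fkbp5 and Tsc22d3 had r = 0.872 (permutation p = 0.00024, adjusted p = 0.00466) and rho = 0.773 (permutation p = 0.00049, adjusted p = 0.00206). Tsc22d3 and Per1 had r = 0.769 (permutation p = 0.00067, adjusted p = 0.00466) and rho = 0.832 (permutation p = 5e-05, adjusted p = 0.00105). These genes were measured in the same libraries and so share depth, tissue makeup and time of collection.

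The other 3 pairs past the threshold gave nearby values. Tsc22d3 and Zbtb16 had r = 0.717 (permutation p = 0.00111) and rho = 0.800 (permutation p = 0.0002), Fkbp5 and Zbtb16 r = 0.715 (permutation p = 0.00104) and rho = 0.758 (permutation p = 0.00024), and Fkbp5 and Per1 r = 0.680 (permutation p = 0.0006) and rho = 0.693 (permutation p = 0.00036). All 3 had an adjusted p of 0.00466 for r. Zbtb16 and Per1 passed by rho (0.612, permutation p = 0.00849, adjusted p = 0.0297) and not by r (0.488, permutation p = 0.0599, adjusted p = 0.179). Sgk1 and Pdk4 had no pair past the threshold, and Sgk1 had negative r with all 6 others. Without the 2 libraries farthest in Sgk1, r was positive with Per1 (0.200) and with Pdk4 (0.1202).

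The 2 libraries farthest from the median mattered. Without WT normoxia 5 and WT hypoxia 2, Fkbp5 and Tsc22d3 had r = 0.676 (permutation p = 0.00921, adjusted p = 0.0604), and the pairs of Zbtb16 with Fkbp5 (0.640) and with Tsc22d3 (0.635) also missed the threshold (adjusted p = 0.0604 for both). The relation of Tsc22d3 with Per1 held (r = 0.779, permutation p = 0.0001, adjusted p = 0.0021), as did that of Fkbp5 with Per1 (r = 0.618, permutation p = 0.00294, adjusted p = 0.0309). The labels put all libraries in 1 batch, so no value within batches can be given.

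**Figure D4:**
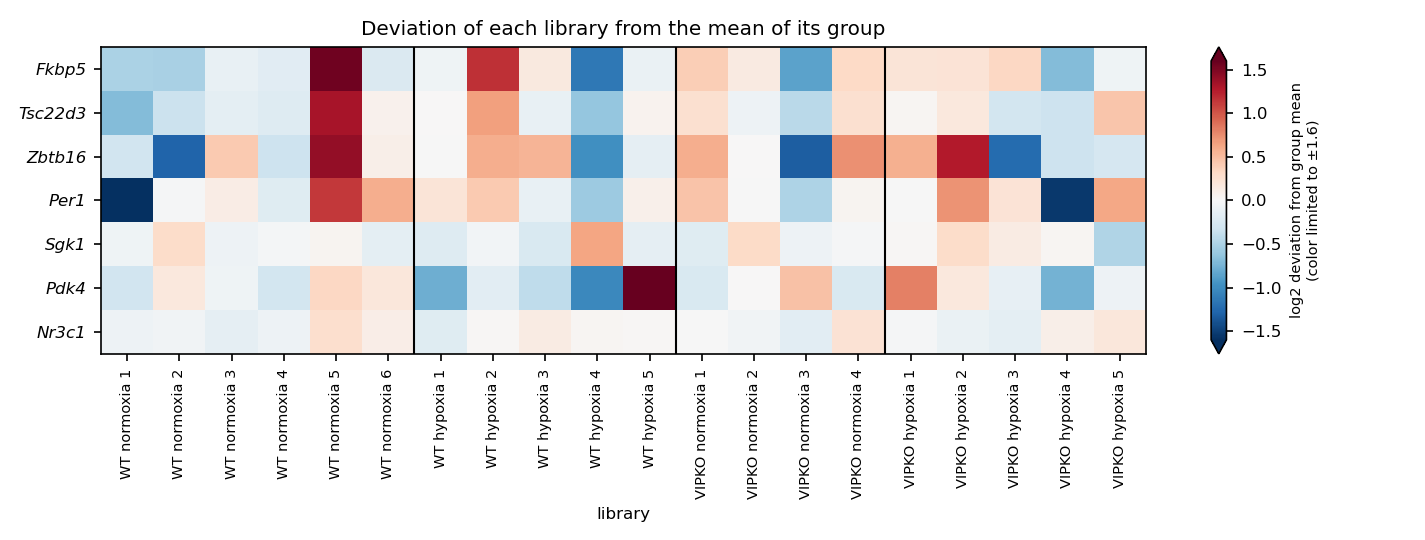
Log2 deviation of each library (columns) from the mean of its group for the 7 genes (rows), red above and blue below, with color limited at ±1.6; black lines separate the groups. Fkbp5, Tsc22d3, Zbtb16 and Per1 are all above the mean in WT normoxia 5 and WT hypoxia 2 and all below it in WT hypoxia 4 and VIPKO normoxia 3.

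The libraries behind this pattern can be read by name. In WT normoxia 5 the deviation was 1.55 for Fkbp5, 1.31 for Tsc22d3, 1.41 for Zbtb16 and 1.13 for Per1, against 0.040 for Sgk1 and 0.26 for Nr3c1. In WT hypoxia 4 it was -1.14, -0.61, -0.98 and -0.58 for the same 4 genes in that order, with 0.63 for Sgk1. VIPKO normoxia 3 lay at -0.86, -0.43, -1.32 and -0.49. The library labelled VIPKO hypoxia 4 was below its group mean in all 4, with Per1 at -1.55. VIPKO normoxia 3 and that library were also apart in Dbp and Arntl. Dbp was 736 (3582 to 4673 in the rest of its group) and 345 (1772 to 3044) in that order. Arntl was 622 (75 to 123) and 484 (159 to 252). Per2 in VIPKO hypoxia 4 (1672) and Dbp in WT normoxia 5 (808) lay within the ranges of their groups. The part of the clock in these relations was not tested.

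Among all other tested genes (unnamed gene models and sex-linked genes left out), each of the 7 had close companions, given as a description by Pearson's r of deviations over the 20 libraries. For Fkbp5 they were Rgcc (0.943), Foxo3 (0.916) and Nkd1 (0.908). Tsc22d3 was closest to Rev1 (0.910), Tle1 (0.909) and Fam107a (0.897), and Zbtb16 to Mcf2l (0.916), Map3k6 (0.895) and B4galt4 (0.886). Per1 was closest to Pde4c (0.840), Nr1d2 (0.800) and Csrnp1 (0.793). For Sgk1 they were Slmapos2 (0.844), Dhx35 (0.816) and Osm (0.808), and for Nr3c1 Mapre1 (0.892), Armc1 (0.882) and Calcrl (0.881). Pdk4 was closest to Ada (0.904), Neb (0.899) and Hadhb (0.892). Its deviation was 2.39 in WT hypoxia 5, the library with skeletal muscle markers, and these values were not computed without that library. Neb codes for nebulin of the skeletal muscle thin filament, and Nr1d2 for a clock repressor.

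A second list held 22 other genes that glucocorticoids are known to induce, all tested. With hypoxia in WT 6 rose and 0 fell, where 7.88% of all tested genes rose. The median log2 fold change was 0.44, and 13 had an unadjusted p under 0.05, with no share of all tested genes computed at that cut. Mt2, a metallothionein, had a signal of 63.3 ± 29.3 (SD, n = 6) in normoxia and 179 ± 57.7 (SD, n = 5) in hypoxia, and rose by 1.56 ± 0.29 (adjusted p = 0.00396). Ddit4, an inhibitor of mTORC1 that hypoxia induces too, went from 416 ± 168 (SD, n = 6) up to 1027 ± 218 (SD, n = 5), a rise of 1.36 ± 0.26 (adjusted p = 0.00456). Mt1 rose by 1.10 ± 0.28 (adjusted p = 0.0159) and the NF-kappaB inhibitor gene Nfkbia by 0.51 ± 0.14 (adjusted p = 0.0206). The Ddit4 and Mt2 calls were kept under all 32 alternatives, and that of Nfkbia was lost without WT hypoxia 5 (adjusted p = 0.0513). The count of 6 became 9 without WT normoxia 5 or WT hypoxia 4, and 4 without WT hypoxia 3 or 5. With WT hypoxia 5 and VIPKO hypoxia 3 left out it was 6.

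In VIPKO, 3 of the 22 rose with hypoxia and 0 fell, where 0.614% of all tested genes rose, and the median was 0.30. Ddit4 was 357 ± 34.0 (SD, n = 4) in normoxia and 1126 ± 528 (SD, n = 5) in hypoxia, a rise of 1.53 ± 0.29 (adjusted p = 0.00944). The cell cycle inhibitor genes Cdkn1a and Cdkn1c rose by 0.97 ± 0.19 (adjusted p = 0.0161) and 0.62 ± 0.14 (adjusted p = 0.0339). The Cdkn1a call was lost without VIPKO hypoxia 1 or 4, and that of Cdkn1c without VIPKO normoxia 2 or 3 or VIPKO hypoxia 1, 4 or 5. The count of 3 became 5 without WT hypoxia 4, 2 without VIPKO normoxia 3 or VIPKO hypoxia 4 or 5, and 1 without VIPKO hypoxia 1. For VIPKO against WT, 2 rose and 2 fell in normoxia (8.65% of all tested genes passed in either direction) and 1 fell in hypoxia (1.62% passed). For the interaction limma called 0 of 22 (6 had an unadjusted p under 0.05).

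**Figure D5:**
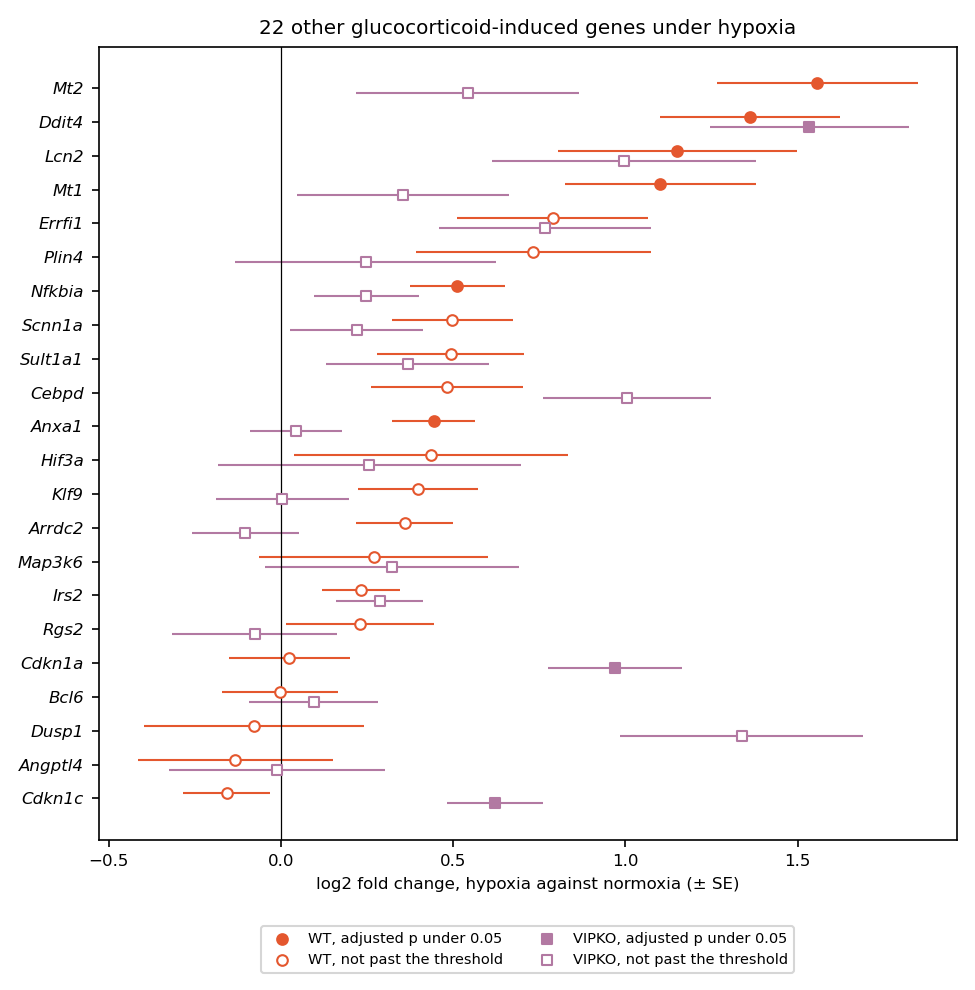
Log2 fold change with hypoxia (horizontal axis, ± SE) of 22 other glucocorticoid-induced genes (rows) in WT (circles) and VIPKO (squares); filled symbols passed an adjusted p of 0.05. In WT 6 are filled, led by Mt2 (1.56) and Ddit4 (1.36), and in VIPKO 3, led by Ddit4 (1.53).

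Of 12 inflammatory genes that glucocorticoids repress, 11 were tested and 1 passed in any comparison. That is 1 of 11 with hypoxia in WT, where 14.7% of all tested genes passed, so the count is no result about the list. The gene was Vcam1, a leukocyte adhesion gene, with a signal of 1399 ± 134 (SD, n = 6) in WT normoxia and 929 ± 184 (SD, n = 5) in WT hypoxia. It fell by 0.61 ± 0.14 (adjusted p = 0.00913), and the call was kept under all 32 alternatives. The median of the 11 was -0.47 with hypoxia in WT and 0.28 in VIPKO.

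Of 16 genes for receptor chaperones, cofactors and steroid enzymes, 3 were higher and 0 lower in VIPKO than WT under hypoxia, where 0.716% of all tested genes were higher. Hsd11b1, whose enzyme regenerates active corticosterone inside cells, was higher by 0.67 ± 0.14 (adjusted p = 0.0214), at 3239 ± 442 (SD, n = 5) against 2043 ± 350.0 (SD, n = 5). The chaperone gene Hsp90aa1 was higher by 0.97 ± 0.23 (adjusted p = 0.0368) and Stip1, which links Hsp70 to Hsp90, by 0.74 ± 0.17 (adjusted p = 0.0326). The Hsd11b1 call was lost without WT hypoxia 1 or 3 or VIPKO hypoxia 2 or 4, and those of Hsp90aa1 and Stip1 without WT hypoxia 1, 2 or 3 or VIPKO hypoxia 1, 2 or 4. With hypoxia in WT, the coactivator gene Crebbp fell by 0.26 ± 0.075 (adjusted p = 0.0284). That call was lost without WT normoxia 2 or 4 or WT hypoxia 1 or 3 (adjusted p up to 0.0737).

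Markers of other cells moved with the hypoxia comparisons. In WT, 7 of 9 adipocyte markers rose with hypoxia, where 7.88% of all tested genes rose. Their sum went from 1234 to 1643 in WT normoxia to 1722 to 22665 in WT hypoxia. B cell markers fell for 4 of 5 in each genotype, where 14.7% of all tested genes passed in either direction in WT and 0.997% in VIPKO. Their sums were 1650.0 to 4597 in WT normoxia, 989 to 1936 in WT hypoxia, 1863 to 3059 in VIPKO normoxia and 697 to 1255 in VIPKO hypoxia. In both genotypes the adipocyte markers at a signal of 0 in single libraries were few, at most 4 of 9. Of the 13 lung cell markers, 3 rose with hypoxia in WT by limma, where 7.88% of all tested genes rose. With hypoxia in VIPKO 0 rose (2 had an unadjusted p under 0.05), where 0.614% of all tested genes rose. For the interaction limma called 0 of 13 (4 had an unadjusted p under 0.05). The 3 that rose in WT were the surfactant genes Sftpb (46556 ± 7880.0 to 76650.2 ± 15953, SD, n = 6 and 5) and Sftpc (120885 ± 37625 to 208270.0 ± 41603), and Foxj1 of ciliated cells (1667 ± 223 to 2823 ± 856). The part of these cells in the changes of Tsc22d3, Per1 and Sgk1 was not tested.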

How the data were processed

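Whole-lung RNA was sequenced in 20 libraries. The deposited values are a normalized signal per gene, made by the authors with Partek on genome build mm10, per the submitters' processing notes. The aligner, counting, strand and normalization were not given in the sources used here. In all, the table had 30746 lines, of which 55 without a gene name (0.007% of the signal) were left out. Depth was estimated from the spacing of low values, and 81.8% to 89.0% of these were near whole reads (within 0.05 of a read) in 19 libraries, too few for a count test.

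Values were tested as log2(signal + 1) with limma 3.58.1 in R 4.3.3, with a variance trend and 4 group means over all 20 libraries. The fold changes are on that scale and understate changes of low genes. The filter asked for a signal of 10 or more in 4 or more libraries and left 21658 genes, and p-values were adjusted by Benjamini-Hochberg over all of them, with a threshold of 0.05. Counts at an unadjusted p under 0.05 have no share over all tested genes beside them, since that share was not computed. The test was first run on simulated data. Positions came from the GENCODE annotation of GRCm38 and promoter windows from RefSeq. Scripts used Python 3.11.15 with numpy 2.4.6, pandas 2.3.3, scipy 1.17.1 and matplotlib 3.10.9.

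The 7 genes and all lists were chosen with earlier results of these data known, and no list count is independent support for its direction. All 7 genes are named. From other lists up to 4 genes past the threshold by smallest p were named, or values only where none passed (some of these genes are not reported here), and for likeness the 3 genes with the highest r. Clock and marker genes named by library (Dbp, Per2, Arntl) were chosen after their values were seen. Alternatives changed the pseudocount, filter, scaling, variance trend, library weights, replicate block, groups fitted and libraries, and those for other lists and for the spread within groups were added after seeing the data.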

Additional observations from a re-analysis of the deposited data

Results flagged for a closer look

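Among 28 combinations of gene and group, 4 held a library far from the rest of its group by Dixon's criterion. It was applied to the signal and not to its log2, which the other tests used. Chance meets it in about 1 in 20 groups of normally distributed values, and that rate need not hold for signals with a long upper tail. Fkbp5 was 1432.8 in WT normoxia 5, where the next library of that group was 449.6. Tsc22d3 was 7222.6 in the same library, with 3053.3 next. Sgk1 was 3121.4 in WT hypoxia 4, with 1957.6 next. Pdk4 was 2559.7 in WT hypoxia 5, with 434.8 next.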

How the results depend on the processing

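The values per gene come from 1 table of unknown normalization, groups hold 4 to 6 libraries, and WT hypoxia 4 was the shallowest, which limits the precision of low genes such as Pdk4. Calls of Tsc22d3, Per1 and Sgk1 kept their direction under all 32 alternatives, over 0.68 to 1.10 and 1.04 to 1.64 for hypoxia in WT and 0.64 to 0.90 for hypoxia in VIPKO. They stayed past the threshold in 18, 26 and 24 of 32. Rescaling moved the median of all genes by less than 0.1. Of 33 calls among other listed genes, 4 were kept under every alternative (Ddit4, Mt2, Vcam1 and Pdk2, with hypoxia in WT) and 25 were lost when some single library was left out.

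With hypoxia in WT, 1 of the 7 genes passed with no filter on low values, with no variance trend, without WT hypoxia 5 and VIPKO hypoxia 3, and with the compared groups alone. The same count held with 3 libraries out together, namely VIPKO hypoxia 2 and the VIPKO normoxia pair 2 and 3 (named the 3 libraries hereafter). With library weights 4 passed, and 0 to 3 when each library was left out in turn. With hypoxia in VIPKO, 0 passed in both fits without several libraries and with the compared groups alone, and 0 to 1 when each library was left out. For VIPKO against WT in hypoxia 1 passed with the filter of 50 and with library weights, and 0 to 1 without each library. For the interaction 2 passed with library weights and 0 to 1 without each library. The cause of these changes was not tested.

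Directions turned only for values that had not passed. For VIPKO against WT in normoxia, Pdk4 was -0.021 with quantile normalization and -0.22 without the 3 libraries. Without each library in turn, Tsc22d3 ran from -0.052 to 0.35, Zbtb16 from -0.15 to 0.55, Nr3c1 from -0.017 to 0.11 and Pdk4 from -0.13 to 0.11. With hypoxia in VIPKO, quantile normalization gave -0.0010 for Zbtb16 and -0.025 for Nr3c1, and the fit without the 3 libraries -0.91 and -0.049. Without each library, Zbtb16 ran from -0.37 to 0.37, Per1 from -0.48 to 0.083 and Nr3c1 from -0.019 to 0.11. For VIPKO against WT in hypoxia, Zbtb16 was 0.11 and Pdk4 0.020 without WT hypoxia 5 and VIPKO hypoxia 3, and without each library Tsc22d3 ran from -0.28 to 0.039, Zbtb16 from -0.48 to 0.15 and Nr3c1 from -0.024 to 0.062. In the interaction, Fkbp5 was -0.29 with library weights, -0.078 without WT hypoxia 5 and VIPKO hypoxia 3 and -0.38 without the 3 libraries. Zbtb16 was 0.0024 and Nr3c1 0.0082 without WT hypoxia 5 and VIPKO hypoxia 3. Without each library, Fkbp5 ran from -0.28 to 0.33, Zbtb16 from -0.71 to 0.037 and Nr3c1 from -0.089 to 0.042.

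Same-numbered libraries of different groups did not deviate together over all tested genes (27 pairs, mean r -0.0075, 7 over 0.1). Pairs with other numbers gave nearly the same (122 pairs, mean r 0.0008, 26 over 0.1). The samples were therefore not treated as paired, though a pairing that touches only some genes would not show in these means. With the replicate block the number of the 7 genes past the threshold was 0, 2, 1, 0 and 0 in the 5 comparisons, as without it. Zbtb16 was -0.021 and Nr3c1 -0.0044 with hypoxia in VIPKO, and Fkbp5 was -0.031 in the interaction. With the block, 3 of the 22 other induced genes rose with hypoxia in WT, against 6 without it and 11 with library weights.

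Without the 2 farthest libraries, 2 of 21 relations passed, and r turned to 0.200 for Sgk1 and Per1, 0.1202 for Sgk1 and Pdk4, and -0.0064 for Nr3c1 and Pdk4.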

Other observations

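Genes of fatty acid use under PPAR and FOXO control, a group that shares its regulators with Pdk4, were read beside the 7 genes. With hypoxia in WT 4 of 12 rose and 0 fell, where 7.88% of all tested genes rose, and the median log2 fold change was 0.55. Fabp4, the fatty acid carrier of adipocytes and some endothelium, rose by 3.04, and Acadvl, which starts the oxidation of very long chains, by 0.79. The Acadvl call was lost without WT normoxia 2 or 4 or WT hypoxia 1, 3 or 5. Adipocyte markers, a list that includes Fabp4, also rose with hypoxia in WT, for 7 of 9. Within WT hypoxia, Fabp4 reached 3202 beside a median of 330, and Acadvl 3186 beside a median of 1303. WT hypoxia 5 of that group held the skeletal muscle signal and the highest adipocyte sum. The part of muscle and adipocytes in these values was not tested.

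Among 10 immediate early genes, 2 were lower in VIPKO than in WT in normoxia and 0 higher, where 8.65% of all tested genes passed in either direction. Jun fell by 0.58 and Ier2 by 0.87 on the log2 scale. The Jun call was lost without VIPKO normoxia 2 or 4, and that of Ier2 without any 1 of 6 libraries.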
